A study of Homo sapiens with 24 samples.

Results

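The 38 genes described here are the glycolytic enzymes with their regulators and a panel of genes known to be induced by low oxygen. They were taken as a named list of symbols, and a member was any row of the deposited gene table whose name held a listed symbol and whose value reached 10 in 3 or more libraries. All 38 listed genes passed, of 20162 rows past the same filter and 25516 rows used. The study sequenced total RNA of 2 sublines of the T47D breast cancer cell line, T47D-Y, labelled as lacking the progesterone receptor (PR), and T47D-co, labelled PR-positive. Cells were kept in medium with serum and insulin. They received interferon-alpha (IFN, 20 IU/ml) or water for 18 h and then, for 6 h, either the progestin R5020 at 10 nM or ethanol (EtOH), its solvent. The 8 groups of 3 libraries are therefore T47D-Y and T47D-co, each given EtOH and water (called vehicle below), R5020 and water, IFN and EtOH, or IFN and R5020. The labels call the replicates biologic triplicates without saying that they were separate cultures, so the p-values measure the spread between these libraries. Each line is a single subline, and the 2 differ in more than PR, so PR and the other differences between them cannot be told apart.

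Hypoxia-inducible factor (HIF) is a dimer of an oxygen-sensitive alpha subunit, HIF-1 alpha (HIF1A) or HIF-2 alpha (EPAS1), with a stable beta subunit, ARNT. In oxygen, prolyl hydroxylases, among them those encoded by EGLN1 and EGLN3, mark the alpha subunit for destruction through VHL. When oxygen falls, the protein persists, binds a short core motif in DNA and raises genes of glucose uptake, glycolysis, lactate export, pH control, mitochondrial turnover and vessel growth. HIF is controlled mostly through protein stability, so the transcript of an alpha subunit is not a measure of its activity. Glycolysis turns glucose into pyruvate in the cytosol, and tumour cells often send much of that pyruvate to lactate. No oxygen level is given in the labels, and no group is labelled hypoxic.

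The stretches of promoter below belong to 7 members chosen after their values were seen. BNIP3, PFKFB3 and P4HA2 rose with R5020 in T47D-co, EPAS1, ANKRD37 and P4HA1 fell, and LDHA is shown because it shares the highest number of matches with BNIP3. They show how unevenly the HIF core motif was spread over the members. They are RefSeq sequences of GRCh38.p14, 5′ to 3′ on the gene's own strand and upstream of the first listed start site, with capitals marking matches to ACGTG or GCGTG on either strand, which read CACGT or CACGC in reverse. CACGTG counts once on each strand. For LDHA 5 of its 6 matches lie in the stretch printed.
BNIP3, chr10:131981993-131982096, minus strand: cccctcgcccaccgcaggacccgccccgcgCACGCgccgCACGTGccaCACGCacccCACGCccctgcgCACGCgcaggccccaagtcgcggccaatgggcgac
LDHA, chr11:18394348-18394524, plus strand: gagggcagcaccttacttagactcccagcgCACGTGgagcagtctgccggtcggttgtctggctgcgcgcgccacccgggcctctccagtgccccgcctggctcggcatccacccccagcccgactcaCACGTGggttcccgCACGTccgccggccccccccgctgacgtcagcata
ANKRD37, chr4:185396649-185396732, plus strand: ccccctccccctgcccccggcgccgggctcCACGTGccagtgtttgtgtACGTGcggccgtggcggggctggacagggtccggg
P4HA1, chr10:73096918-73096982, minus strand: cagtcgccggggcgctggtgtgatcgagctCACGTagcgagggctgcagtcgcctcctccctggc
P4HA2, chr5:132227092-132227151, minus strand: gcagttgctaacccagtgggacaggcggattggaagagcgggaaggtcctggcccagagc
PFKFB3, chr10:6144723-6144787, plus strand: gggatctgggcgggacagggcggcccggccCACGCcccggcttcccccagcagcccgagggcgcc
EPAS1, chr2:46297260-46297324, plus strand: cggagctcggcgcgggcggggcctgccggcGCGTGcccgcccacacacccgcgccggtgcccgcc

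BNIP3 and LDHA each held 6 matches in their 300-base windows (250 bases before to 50 after the start site). ANKRD37 held 3, and P4HA1, PFKFB3 and EPAS1 held 1 each. P4HA2, the member with the largest rise, held none. Of the members not printed that rose by more than LDHA, LOX held 4, HK2 3, SLC2A1 and PFKFB4 1 each and PFKP none. A promoter was found for 35 of the 38 members, all but BNIP3L, VEGFA and NDRG1, and 26 of the 35 (74.3%) held at least 1 core match, against 48.4% of 27305 RefSeq promoters of the same length. At least 2 matches were found in 10 members and in 23.3% of all promoters. ACGTG alone was found in 15 members (42.9%) and in 21.6% of all promoters. The core stood in 11 of 16 promoters of members higher with R5020 in T47D-co with water, in 6 of 7 of those lower, and in 9 of 12 of those not called. The spaced palindrome ACANNNTGT, taken as a loose form of the steroid receptor element, was found in 1 member, CA9 (2.86%), and in 5.45% of all promoters. A match is a description of these letters and not a binding site.

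Values are fragments estimated per row and brought to 1 common scale over the 24 libraries (scaled fragments), with no correction for gene length, and group levels are means ± SD of 3 libraries. Libraries held 14137439 to 33602125 estimated fragments (median 18381447), a number that limits the precision of low rows. PGR, the PR gene, had 642 to 719 in T47D-Y libraries with EtOH and 418 to 483 with R5020, against 24903 to 27956 and 11807 to 13718 in those of T47D-co, so its RNA was low but present in the line labelled PR null. All 8 luminal epithelial markers were found and passed the filter (sum 64438 to 115370). A usable row was found for 1 of 5 fibroblast, 5 of 5 leukocyte and 2 of 4 endothelial markers. Of those found, 1 fibroblast (sum 154 to 473), 2 leukocyte (4323 to 5901) and 1 endothelial marker (1.10 to 19.6) passed the filter, with each sum taken over the markers found. Mitochondrial transcripts made up 0.942% to 1.08% of 4 libraries (T47D-Y vehicle replicate 1, T47D-Y with R5020 and water replicates 1 and 2, T47D-co vehicle replicate 2) and 3.17% to 4.75% of the other 20. Calls below are limma tests over all 20162 rows with Benjamini-Hochberg adjusted p under 0.05, and differences are on the log2(value + 1) scale ± SE.

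Of the 38 members, 26 had a row of their own and 12 shared a merged row with other symbols, 7 of them with another protein-coding gene: HIF1A with SNAPC1, EGLN3 with SPTSSA, GPI with PDCD2L, PFKFB4 with UCN2, ENO2 with LRRC23, SLC16A3 with CSNK1D, and ALDOC with PIGS, SGK494, SPAG5 and UNC119. At 18 members the authors' locus held several rows, and the split of fragments among them is an estimate. The member's row took 13.6% to 51.1% of the locus for P4HA2, 15.6% to 70.6% for PDK1, 6.90% to 24.6% for ANKRD37, 7.11% to 12.8% for ENO2 and 0.139% to 19.8% for LOX. Processed copies of several members had rows of their own, 20 for GAPDH (sum 2104 to 5048), 6 for PGAM1 (sum 4336 to 7361, against a mean of 488 for PGAM1 itself) and 1 for HIF1A (1786 to 2730, against a mean of 3408 for HIF1A itself), so the levels of these genes are uncertain. The same holds for further members, among them LDHA (6 rows, sum 501 to 2268, gene mean 6298.5) and BNIP3 (1 row, 82.4 to 784, gene mean 907.4). TPI1 had 2 such rows (sum 642 to 744, gene mean 1733.5). In RNA from whole cultures, a change in every cell and a change in some of the cells cannot be told apart.

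**Figure D1:**
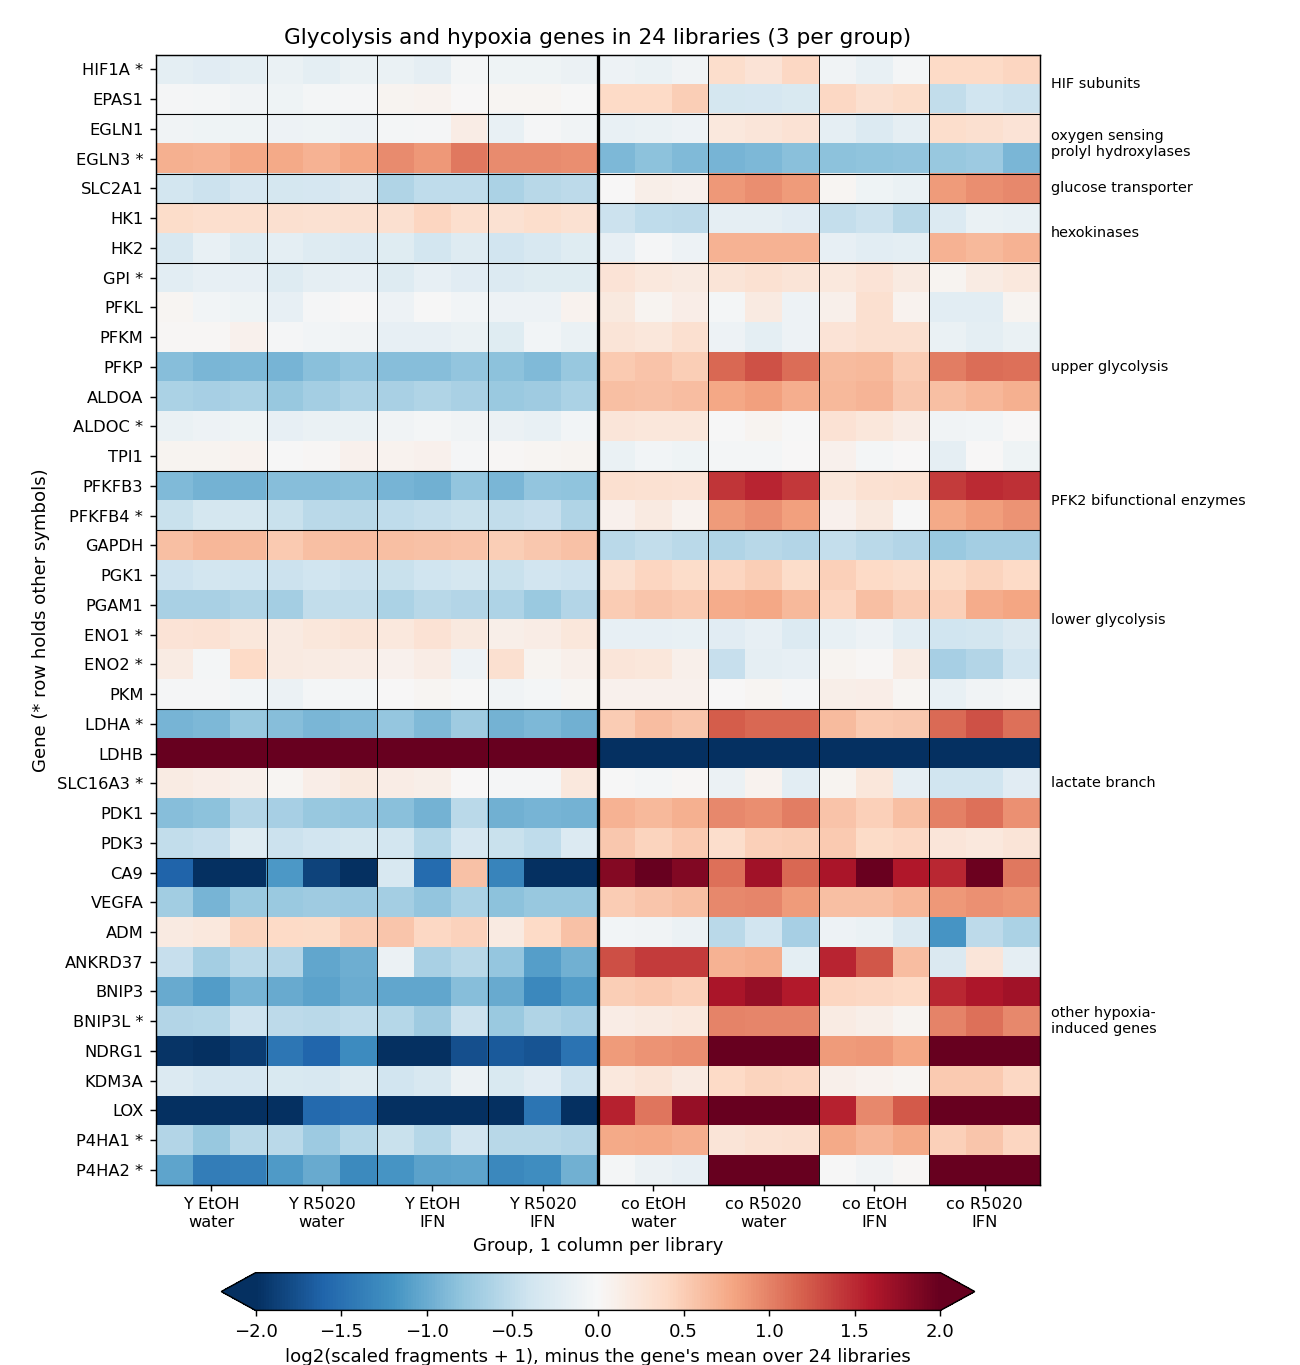
Each column is 1 of the 24 libraries and each row 1 of the 38 members, ordered by role; colour gives the log2 level relative to the member's mean over all libraries. The 6 T47D-co libraries given R5020 stand apart from the other 6 T47D-co libraries in rows such as P4HA2 and NDRG1, and the line boundary separates rows such as LDHB and EGLN3 (a row shared with SPTSSA).

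With R5020 and water in T47D-co, 19 of the 38 members were higher and 7 lower than with vehicle. Over all rows 26.6% were higher and 30.0% lower (56.5% in either direction), so change as such was common, and the members' median difference was 0.18 against -0.04 for all rows. Higher were HIF1A, EGLN1, SLC2A1, HK1, HK2, PFKP, ALDOA, PFKFB3, PFKFB4, PGAM1, LDHA, PDK1, VEGFA, BNIP3, BNIP3L, NDRG1, KDM3A, LOX and P4HA2. Lower were EPAS1, PFKM, ALDOC, ENO2, ADM, ANKRD37 and P4HA1. Quantile normalization gave 19 higher and 14 lower, counts that stand without the share of all rows called under that scaling. The groups did not overlap in 30 members, which include all 26 calls, nor in 61.7% of all rows.

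The alpha subunits went in opposite directions. HIF1A (chr14:62147758-62263146, positions in hg19 of the authors' locus), the widely expressed alpha subunit, stood at 3145, 3063 and 3216 scaled fragments in the vehicle libraries and at 4279, 4085 and 4472 with R5020. The R5020 libraries were all higher (log2 difference 0.45 ± 0.04 SE, adjusted p = 6.95e-11), and the row includes SNAPC1. Summed over all rows of the HIF1A locus the rise was 0.30. EPAS1 (chr2:46520805-46613836), the HIF-2 alpha subunit, had 4167, 4184 and 4443 with vehicle and 2469, 2501 and 2571 with R5020. Every R5020 library lay below every vehicle library, a fall (log2 difference -0.76 ± 0.03 SE, adjusted p = 2.42e-16).

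Of the listed oxygen-sensing hydroxylases, EGLN1 (chr1:231499496-231560790), the main enzyme that marks HIF alpha in oxygen, rose from 1251, 1265 and 1280.1 to 1592, 1626 and 1684 (log2 difference 0.37 ± 0.04 SE, adjusted p = 6.79e-08), with no overlap between groups. EGLN3 (chr14:34393436-34931980), itself a known HIF target, had 1566, 1660.1 and 1588 and 1538, 1572 and 1638, groups that overlapped, and the 95% interval of the difference ran from -0.11 to 0.07 on the log2 scale (adjusted p = 0.731). The EGLN3 row also holds SPTSSA. EGLN2, a related hydroxylase outside the listed members, was lower with R5020, at 2229 ± 73.4 with vehicle and 1968 ± 90.8 with R5020.

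The listed glucose transporter and both listed hexokinases rose. SLC2A1 (chr1:43391051-43424530), the glucose transporter GLUT1, had 1350.1, 1461 and 1419.5 with vehicle and 2455, 2559 and 2413 with R5020, all higher (log2 difference 0.81 ± 0.05 SE, adjusted p = 4.6e-14). HK2 (chr2:75061107-75120486), the inducible hexokinase that traps glucose as glucose-6-phosphate, went from 909, 1003 and 951 to 1656, 1644 and 1653 (log2 difference 0.79 ± 0.05 SE, adjusted p = 1.96e-13). The R5020 libraries again all lay above the vehicle libraries. HK1 (chr10:71029739-71161638), the constitutive hexokinase, rose less, from 1913, 1818 and 1785 to 2284, 2269 and 2211 (log2 difference 0.29 ± 0.04 SE, adjusted p = 3.13e-07).

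Among the 7 genes from glucose-6-phosphate to triose phosphate, 2 rose, 2 fell and 3 did not pass the test. The 3 phosphofructokinase subunits, which form the enzyme of the committed step, split. PFKP, the platelet-type subunit, rose from 2403, 2499 and 2368 to 3713, 4048 and 3639 (log2 difference 0.65 ± 0.05 SE, adjusted p = 1.01e-11). PFKM (chr12:48436680-48540187), the muscle-type subunit, fell from 1116, 1101 and 1169.7 to 875, 822 and 875 (log2 difference -0.40 ± 0.04 SE, adjusted p = 1.28e-08), and the sum of its locus gave -0.26. PFKL, the liver type, had 2445 ± 121 and 2265 ± 238 in overlapping groups (adjusted p = 0.211). The aldolases, which cleave fructose bisphosphate, split as well. ALDOA had 20210.0 ± 233 and 22732 ± 723 (log2 difference 0.17 ± 0.04 SE, adjusted p = 0.000465), a small difference that quantile normalization brought to 0.03 with no call. ALDOC (chr17:26782769-26972472) fell from 4206, 4185 and 4147 to 3558, 3688 and 3527 (log2 difference -0.22 ± 0.03 SE, adjusted p = 4.72e-06), in a row that also holds 4 other protein-coding genes. GPI and TPI1 were not called.

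Both listed bifunctional enzymes that make fructose-2,6-bisphosphate, the activator of phosphofructokinase, rose. PFKFB3 (chr10:6186880-6277495), the form whose kinase activity most exceeds its phosphatase activity, had 3332, 3280.4 and 3231 with vehicle and 7160.5, 7674 and 7110.1 with R5020, the largest rise of the 38 members outside the other hypoxia-induced genes (log2 difference 1.16 ± 0.04 SE, adjusted p = 6.25e-18). PFKFB4 (chr3:48555116-48601206) went from 645, 686 and 634 to 1091, 1136 and 1075 (log2 difference 0.75 ± 0.06 SE, adjusted p = 1.19e-11), in a row shared with UCN2. No library of either R5020 group reached down to its vehicle group. PFKFB1 and PFKFB2, of the same family but outside the 38, were lower with R5020. PFKFB1 had 90.6 ± 7.35 with vehicle and 50.3 ± 2.02 with R5020, and PFKFB2 847.7 ± 5.07 and 683 ± 37.5.

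Below the triose phosphates, 1 of 6 genes rose, 1 fell and 4 did not pass. GAPDH (chr12:6643092-6665239), which oxidises glyceraldehyde-3-phosphate, had 6429.5, 6576 and 6399 with vehicle and 6137, 6304 and 6170.1 with R5020 (log2 difference -0.06 ± 0.03 SE, adjusted p = 0.0984). PGK1 had 5815 ± 209.7 and 6062 ± 236, ENO1 8836 ± 82.8 and 8476 ± 338 and PKM, the pyruvate kinase of most tumours, 18355 ± 71.3 and 17481 ± 359.6. None of these 3 was called. PGAM1, phosphoglycerate mutase, was the 1 call upward (645 to 736, log2 difference 0.19), and it lost its call in 4 of 6 fits that left out 1 library (T47D-co vehicle replicate 1 or 3, T47D-co R5020 replicate 1 or 2), at 0.16 to 0.23. ENO2 (chr12:6976282-7032861), the neuronal enolase, fell from 247, 245 and 224 to 151, 185 and 186 (log2 difference -0.46 ± 0.11 SE, adjusted p = 0.000633). Its row took at most 12.8% of the locus, which it shares with TPI1, and the sum of all rows there was not called (log2 difference 0.0054).

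Summed over 17 rows of the route, the level per library was 87503 ± 414 with vehicle and 94536 ± 2283 with R5020 in T47D-co, or 0.467% and 0.470% of each library's fragments. With IFN it was 88395 ± 3139 without and 89311 ± 2889 with R5020, or 0.467% and 0.437%, so the share went down there. ALDOA, PKM, LDHA, ENO1 and GAPDH hold most of this sum, so the larger moves of the less abundant kinases hardly show in it.

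In the lactate branch, 2 of 5 genes rose and 3 were not called. LDHA (chr11:18415934-18429972), the lactate dehydrogenase subunit that favours making lactate, had 7411, 8016 and 7677 with vehicle and 12104, 11551 and 11595 with R5020, with every R5020 library higher (log2 difference 0.61 ± 0.05 SE, adjusted p = 1.95e-11). LDHB (chr12:21788275-21928515), the partner subunit, was close to absent in T47D-co, with 4.81, 6.42 and 3.46 and 7.36, 5.04 and 9.10 scaled fragments. PDK1 (chr2:173292081-173489823), a mitochondrial kinase that inactivates pyruvate dehydrogenase, rose from 1324, 1284 and 1334 to 1602, 1563 and 1665 (log2 difference 0.29 ± 0.08 SE, adjusted p = 0.00187), and the whole locus also rose (0.30). PDK3 (chrX:24483337-24557954) had 769, 720.1 and 763 and 677, 735 and 745, in overlapping groups (adjusted p = 0.466). SLC16A3 (chr17:80186272-80231607), the lactate exporter MCT4, had 811, 799 and 829 and 755, 860.1 and 702 (adjusted p = 0.438), in a row shared with CSNK1D.

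Of the 11 other hypoxia-induced genes, 7 rose, 3 fell and 1, CA9, was not called. P4HA2 (chr5:131520568-131731306), a catalytic subunit of the hydroxylase that stabilises collagen, made the largest move of all members, from 355, 337 and 327 to 1981, 1903 and 1907 (log2 difference 2.50 ± 0.08 SE, adjusted p = 9.7e-19). The R5020 libraries were far above every vehicle library. Summed over all rows of its locus the rise was 2.04. P4HA1 (chr10:74766974-74856732), the other catalytic subunit, went down, from 1673, 1698 and 1639.6 to 1186, 1222 and 1232 (log2 difference -0.46 ± 0.05 SE, adjusted p = 5.45e-08), again without overlap.

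NDRG1, a stress-response gene that hypoxia and hormones are known to raise, stood at 4440.1, 4617 and 4689 with vehicle and 15834, 15945 and 15515 with R5020 (log2 difference 1.78 ± 0.10 SE, adjusted p = 6.81e-14). It was among the most abundant members in the R5020 libraries. LOX (chr5:121297655-121413980), the secreted enzyme that cross-links collagen, rose from a low level, 51.3, 36.8 and 59.7, to 162, 186 and 129 (log2 difference 1.68 ± 0.37 SE, adjusted p = 0.00038). The LOX row took at most 19.8% of a locus it shares with SRFBP1, and the locus as a whole rose by 0.44.

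The mitophagy receptors rose as a pair. BNIP3 (chr10:133781577-133795435), which marks mitochondria for removal, had 939, 959.9 and 924 with vehicle and 2082, 2228 and 2000.1 with R5020 (log2 difference 1.16 ± 0.07 SE, adjusted p = 6.34e-14). BNIP3L, its close relative NIX, had 2137, 2178 and 2225 and 3821, 3768 and 3773 (log2 difference 0.80 ± 0.05 SE, adjusted p = 2.12e-12). In both, each R5020 library exceeded each vehicle library. VEGFA (chr6:43737920-43754224), the main vessel growth factor, rose from 1944, 2013 and 2070.5 to 2680.3, 2694 and 2478 (log2 difference 0.38 ± 0.05 SE, adjusted p = 4.62e-07). KDM3A, a histone demethylase induced by HIF, rose less, from 916 ± 22.1 to 1057 ± 16.3 (log2 difference 0.21).

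The falls were ANKRD37 and ADM besides P4HA1. ANKRD37 (chr4:186317174-186347139), a small ankyrin-repeat protein often used as a hypoxia marker, went from 109, 117 and 117 to 71.5, 72.9 and 38.1 (log2 difference -0.96 ± 0.24 SE, adjusted p = 0.00133). Its whole locus, which includes UFSP2, fell by 0.46. ADM (chr11:10326226-10328944), the vasodilator peptide adrenomedullin, went from 169, 168 and 162 to 122, 135 and 110.5 (log2 difference -0.45 ± 0.13 SE, adjusted p = 0.0047), with all R5020 libraries lower. CA9 (chr9:35658300-35681156), carbonic anhydrase IX, had 18.8, 24.5 and 18.9 and 10.9, 16.8 and 11.2 scaled fragments, groups that did not overlap but gave no call (adjusted p = 0.295).

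**Figure D2:**
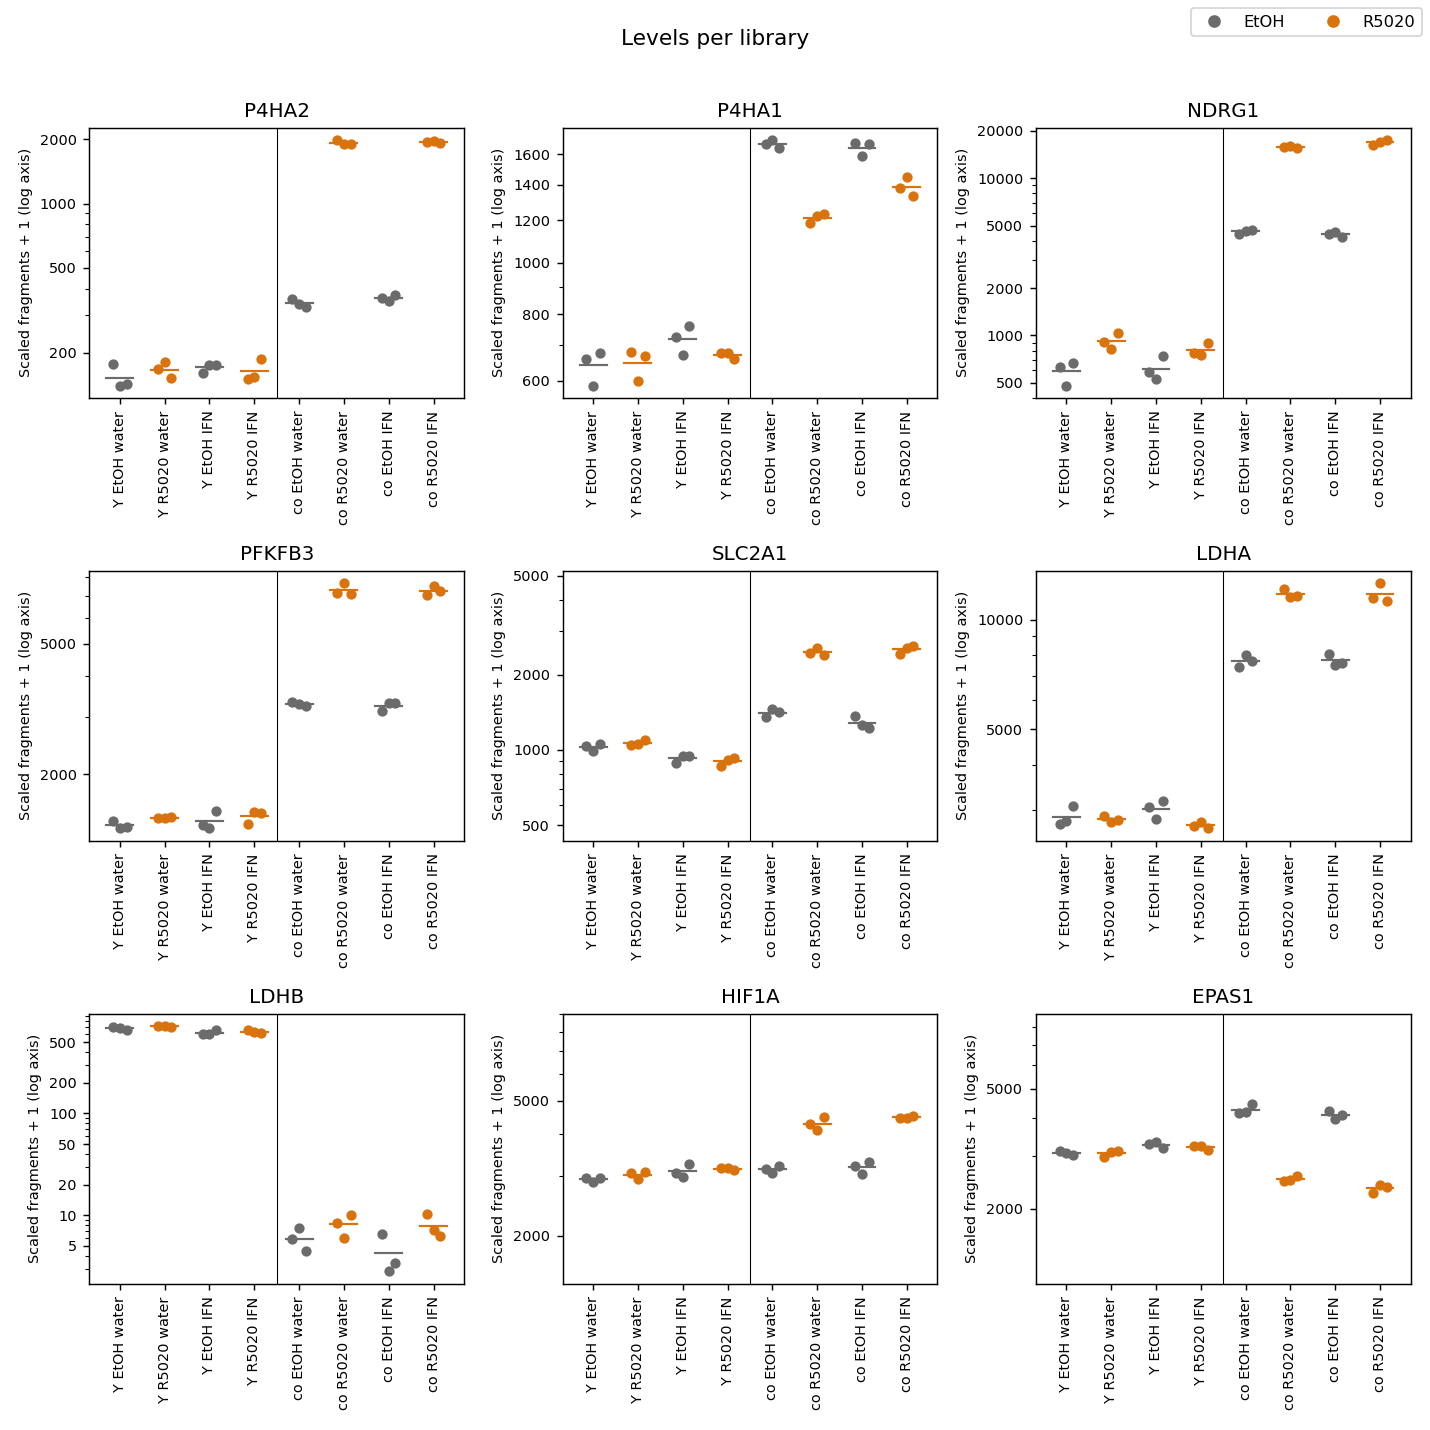
Scaled fragments plus 1 (log axis, which starts above 0 and differs between panels) of 9 members in each of the 24 libraries, by group; points are libraries and lines are group means. In T47D-co the R5020 libraries of P4HA2, NDRG1, PFKFB3, SLC2A1 and LDHA lie above the vehicle libraries and those of EPAS1 below, with and without IFN.

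**Figure D3:**
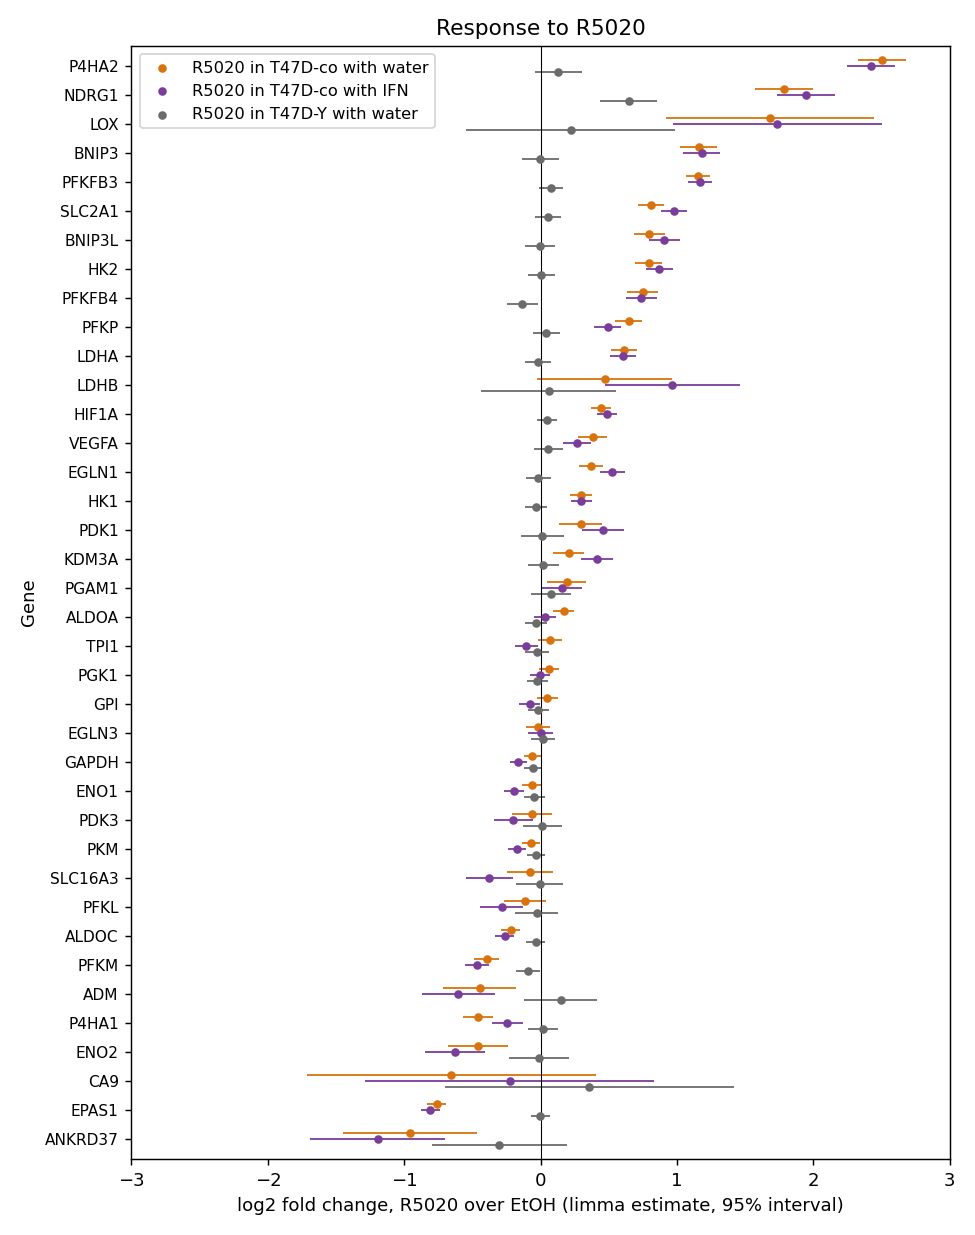
Log2 difference with R5020 (x axis, with its 95% confidence interval) for each of the 38 members, in T47D-co with water (orange, which sets the order), T47D-co with IFN (purple) and T47D-Y with water (grey). P4HA2 at 2.50 and ANKRD37 at -0.96 bound the values of T47D-co with water, whereas in T47D-Y NDRG1 at 0.65 is the only value called.

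Levels of genes within a family were compared per kilobase of transcript, as shares of the family; the shares were not tested. P4HA1 made up 85.3 ± 0.477% of the collagen hydroxylase alpha RNA with vehicle and 42.5 ± 1.03% with R5020, so P4HA2 was the more abundant of the pair there. Among phosphofructokinases PFKP went from 43.4 ± 1.59% to 57.9 ± 0.292%, PFKL from 39.9 ± 1.50% to 31.4 ± 1.30% and PFKM from 16.7 ± 0.573% to 10.8 ± 1.02%. The order of PFKP over PFKL in T47D-co was the reverse of that in T47D-Y, where PFKL held 53.8 ± 1.12% and PFKP 24.6 ± 0.238% with vehicle. HK2 went from 24.5 ± 1.42% to 31.4 ± 0.388% of hexokinase RNA, with HK1 the larger share throughout. With IFN the corresponding shares were 84.3 ± 0.221% and 45.7 ± 0.798% for P4HA1, 43.9 ± 1.25% and 58.2 ± 1.88% for PFKP, and 23.3 ± 0.882% and 31.0 ± 1.44% for HK2. In T47D-Y the P4HA1 share stayed between 82.1% and 83.2% over the 4 groups. These shares use 1 transcript length a gene, and the row of P4HA2 is a part of its locus. The PFKM row took 33.4% to 46.5% of its locus, shared with SENP1, and the LDHB row 4.76% to 99.8%, so the shares of their families depend on that split too.

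**Figure D4:**
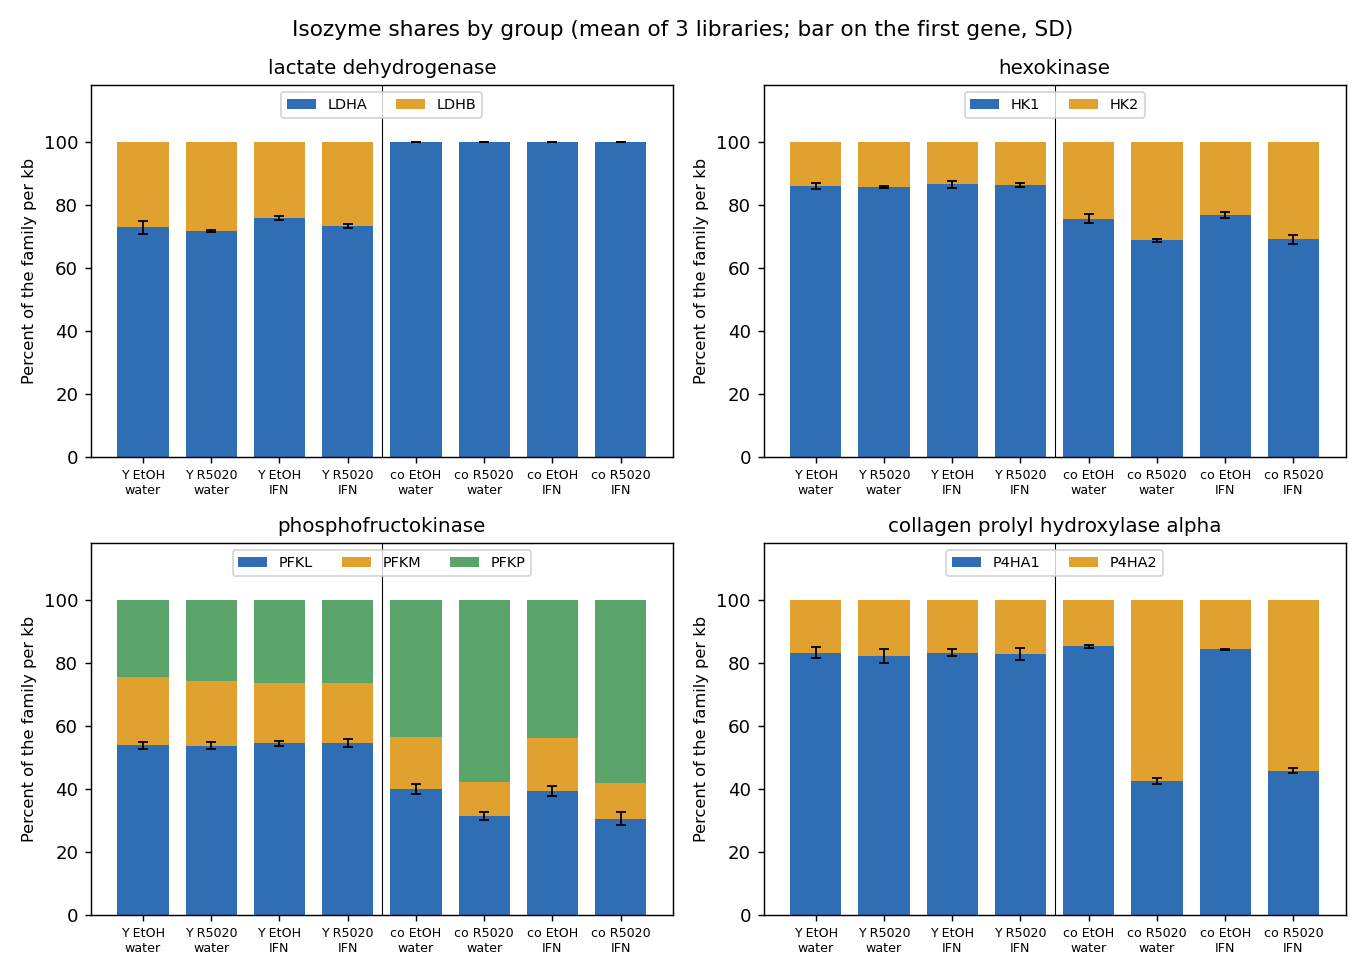
Share of each family's RNA per kilobase (percent) held by each of its members, mean of 3 libraries, in the 8 groups, with the SD drawn on the first-named member. P4HA2 exceeds P4HA1, and PFKP holds 57.9% or more of its family, in the T47D-co groups given R5020, and LDHB is near 0 in all T47D-co groups.

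Genes outside the 38 but in the same pathways were read from 3 wider lists, beside 26.6% of all rows higher, 30.0% lower and a median of -0.04. Of 44 tested other HIF targets (48 listed), 18 were higher and 11 lower with R5020 and water in T47D-co, with a median of 0.07. The largest rises were in PPP1R3C, a glycogen-targeting subunit (17.2 ± 2.77 to 84.1 ± 6.37, log2 difference 2.23 ± 0.20), PLAUR, the urokinase receptor (22.4 ± 5.51 to 101 ± 13.5, 2.14 ± 0.23), and HILPDA, a lipid-droplet protein (3794 ± 143 to 12323 ± 267, 1.70 ± 0.03, in a merged row). The largest falls were in STC1 (-2.63 ± 0.33), ANGPTL4 (-1.83 ± 0.09, 900.2 ± 57.7 to 252 ± 28.4), an inhibitor of lipoprotein lipase, and INSIG2 (-1.18 ± 0.07), a brake on sterol synthesis.

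Of 41 tested other genes of glycolysis, pyruvate use and sugar transport (49 listed), 17 were higher and 13 lower, with a median of 0.06. PDK4, a pyruvate dehydrogenase kinase (2.54 ± 2.90 to 53.8 ± 7.58, log2 difference 4.34 ± 0.45), and PKLR, the liver pyruvate kinase (0.714 ± 1.24 to 24.2 ± 1.60, 4.10 ± 0.53), rose from near 0, so the size of their change depends on the added 1. SLC16A1, the lactate transporter MCT1, rose from 47.3 ± 7.44 to 141 ± 20.0 (1.56 ± 0.19). Sugar transporters other than SLC2A1 went both ways. SLC2A6 (692 ± 50.8 to 422 ± 12.4) and SLC2A13 (2562 ± 59.0 to 2177 ± 109) were lower with R5020. SLC2A8 (278 ± 7.01 to 522 ± 34.8) and SLC2A10 (523 ± 10.4 to 829 ± 47.3) were higher. FBP2 (-1.88 ± 0.42), GPD1 (-1.27 ± 0.16) and SLC16A7 (-1.06 ± 0.24) made the largest falls among the genes called. PGAM2, a phosphoglycerate mutase, had 102 ± 31.0 and 44.7 ± 38.9 with 1 R5020 library near 0 (-2.59 ± 1.32), and was not called (adjusted p = 0.101).

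The 24 HIF pathway regulators, all tested, split evenly into 9 higher, 9 lower and 6 not called, with a median of -0.01. ARNT2, a neural partner of HIF alpha (25.8 ± 1.21 to 133 ± 17.7, log2 difference 2.32 ± 0.12, merged row), CITED4, which competes with HIF for its coactivator (551 ± 50.5 to 2266 ± 181, 2.04 ± 0.11), and ELOC, a subunit of the VHL ligase (1.22 ± 0.05), rose most. CITED2 (-0.50 ± 0.08), ARNT (-0.47 ± 0.04) and VHL itself (-0.28 ± 0.03) fell most. In T47D-Y with R5020, no gene of the 3 lists was called with either water or IFN.

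In T47D-Y with water, R5020 raised 1 of the 38 members and lowered none, against 0.203% of all rows higher and 0.0149% lower (0.218% in either direction). The call was NDRG1, with 632, 477 and 662 in the vehicle libraries and 902, 820.3 and 1034 with R5020. The groups did not overlap (log2 difference 0.65 ± 0.10 SE, adjusted p = 0.00167), and the rise was smaller than the 1.78 ± 0.10 in T47D-co (difference 1.14 ± 0.15 SE, adjusted p = 3.7e-07). All 3 libraries low in mitochondrial transcripts in T47D-Y lie in this comparison. Without the 4 low libraries the difference was 0.88, with 1 library left in the T47D-Y group given R5020 and water. In a fit of the 6 libraries alone the same difference of 0.65 was not called (adjusted p = 0.0681). P4HA2 had 175, 139 and 141 with vehicle and 167, 181 and 151 with R5020, in overlapping groups, with a 95% interval of the log2 difference from -0.04 to 0.30. For PFKFB3 that interval ran from -0.01 to 0.16 and for LDHA from -0.12 to 0.07. With IFN, R5020 gave no call among the members in T47D-Y (over all rows 0.263% were higher and 0.0347% lower, 0.298% in all). In that comparison 7 of the 38 members had an unadjusted limma p under 0.05, beside 1203 of all 20162 rows. NDRG1 had 581, 523 and 733 and 767, 745 and 889 there (log2 difference 0.40 ± 0.10 SE, adjusted p = 0.151).

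The members that moved most in T47D-co showed no call beyond NDRG1 in T47D-Y. With water, EPAS1 had 3112, 3065 and 3023 with vehicle and 2977, 3096 and 3122 with R5020, and BNIP3 had 329.7, 305 and 349.9 and 330.2, 317 and 335. P4HA1 had 659, 586 and 674 and 677, 598 and 666, ADM 199, 204 and 241 and 233, 229.8 and 251, and LOX 2.38, 2.53 and 3.27 and 1.10, 5.12 and 5.30. In each of these 5 genes the groups overlapped. With IFN, the values without and with R5020 were 160.4, 174 and 175 and 149.7, 154 and 187 for P4HA2, 324, 323 and 371 and 330.2, 272 and 307 for BNIP3, and 3291, 3331 and 3176 and 3239, 3242 and 3132 for EPAS1. ENO2 had 222, 231 and 194 and 262, 216 and 225, and ADM 260.0, 235 and 242 and 199, 234 and 264. None of these was called, with adjusted p of 1, 0.688, 1, 1 and 1.

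The difference between the lines in their R5020 response was tested directly. With water it was called for 23 of 38 members, 17 with a higher and 6 with a lower value in T47D-co, against 21.6% and 23.0% of all rows (44.6% in either direction). With IFN it was called for 27, 17 higher and 10 lower, against 22.9% and 23.1% (46.0%). The count with water includes LOX and that with IFN includes LDHB, which passed the filter through 1 line only, so neither is taken as support. The shares of all rows also include rows that passed in 1 line only. Among the members called with water P4HA2 had the largest difference, 2.37 ± 0.12 SE (adjusted p = 9.32e-15), and EPAS1 the most negative, -0.76 ± 0.05 SE (adjusted p = 6.56e-13). CA9 had -1.01 at levels of at most 24.5 scaled fragments and was not called. Leaving out the 4 libraries low in mitochondrial transcripts leaves 1 T47D-Y library with R5020 and water, so no count with water is given for that fit. With IFN, whose groups hold none of the 4, the count in that fit was 27.

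After IFN, R5020 in T47D-co raised 18 of 38 members and lowered 14, against 27.5% and 30.6% of all rows (58.2% in either direction), with a median of 0.10 against -0.05. These libraries share none with the comparison made in water. All 24 members called in both states moved the same way, 17 up and 7 down, and the largest gap between the states was 0.496 on the log2 scale. The same count was not made over all rows, so this agreement is not shown to be particular to the members. P4HA2 went from 362, 349 and 372 to 1951, 1953 and 1914 (log2 difference 2.42 ± 0.08 SE, adjusted p = 1.79e-18). NDRG1 went from 4443, 4516 and 4241 to 16264, 17033 and 17497 (log2 difference 1.94 ± 0.10 SE, adjusted p = 1.1e-14), and LOX from 51.2, 34.0 and 41.0 to 139, 137 and 145 (log2 difference 1.74 ± 0.37 SE, adjusted p = 0.000265). None of the 3 overlapped between groups. In the other direction ANKRD37 went from 127, 105 and 67.8 to 35.7, 52.3 and 38.7 (log2 difference -1.20 ± 0.24 SE, adjusted p = 0.000124) and EPAS1 from 4239, 3959 and 4097 to 2262, 2392 and 2358 (log2 difference -0.81 ± 0.03 SE, adjusted p = 6.39e-17). ENO2 went from 217, 211 and 235 to 131, 138 and 159 (log2 difference -0.63 ± 0.11 SE, adjusted p = 1.59e-05). Summed over all rows of their loci the differences were 2.03 for P4HA2, 0.57 for LOX, -0.44 for ANKRD37 and -0.16 for ENO2, smaller in each than in the row itself.

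ALDOA and PGAM1 were called in water and not with IFN. Called with IFN and not in water were LDHB, higher at a level of a few fragments in overlapping groups (the sum of its locus gave -1.84), and 7 genes that were lower: PFKL, TPI1, GAPDH, ENO1, PKM, PDK3 and SLC16A3. Their differences were small, -0.37 for SLC16A3 (849, 958 and 721 to 622, 619 and 699), -0.20 for PDK3, -0.17 for GAPDH (6672, 6404 and 6185 to 5542, 5811 and 5822) and -0.10 for TPI1. TPI1 lost its call in 4 of 6 fits without 1 library (T47D-co IFN and EtOH replicate 1 or 3, T47D-co IFN and R5020 replicate 1 or 3), and PDK3 without T47D-co IFN and EtOH replicate 1. The test of whether IFN altered the R5020 response in T47D-co called 0 of 38 members with limma. Over all rows 0.873% were higher and 0.134% lower (1.01% in all). An unadjusted limma p under 0.05 was found for 12 of the 38 members and for 3099 of all 20162 rows. The members called in 1 state are therefore not shown to respond differently in the other.

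IFN by itself called few members, and its comparisons run between sets of libraries that the authors scaled separately, so the common scale matters here. In T47D-co with EtOH 0 of 38 were called by limma, against 0.570% of all rows higher and 0.432% lower (1.00% in all). An unadjusted limma p under 0.05 was found there for 4 of the 38 and for 1773 of all 20162 rows. On the deposited scale, where the median of all rows shifts by -0.182, the same comparison gave 28 lower and 0 higher. The share of all rows called on that scale is not given here. HIF1A had 3145, 3063 and 3216 with vehicle and 3206, 3046 and 3287 with IFN, in overlapping groups, and the 95% interval of the log2 difference ran from -0.06 to 0.09. VEGFA had 1944, 2013 and 2070.5 and 2086, 2089.6 and 2169, SLC2A1 1350.1, 1461 and 1419.5 and 1373, 1259.6 and 1226, and neither was called (adjusted p = 0.782 and 0.262).

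With R5020 present, IFN in T47D-co gave 1 member higher, P4HA1, and 5 lower, SLC16A3, ENO1, GPI, GAPDH and EPAS1, against 7.57% and 3.69% of all rows (11.3% in either direction). P4HA1 had 1186, 1222 and 1232 with R5020 alone and 1379, 1448 and 1335 with IFN and R5020 (log2 difference 0.19 ± 0.05 SE, adjusted p = 0.0223). SLC16A3 had 755, 860.1 and 702 and 622, 619 and 699 (log2 difference -0.25 ± 0.08 SE, adjusted p = 0.047), ENO1 8415, 8839.7 and 8172 and 7487, 7642 and 8071 (log2 difference -0.13 ± 0.04 SE, adjusted p = 0.019), and GPI 4731, 4896 and 4742 and 4124, 4455 and 4602 (log2 difference -0.13 ± 0.04 SE, adjusted p = 0.029). None of these groups overlapped. The SLC16A3 row took 25.35% to 33.7% of its locus, and the locus sum was not called (log2 difference -0.147, limma adjusted p = 0.058). The counts also hang on single libraries. Without T47D-co R5020 and water replicate 1, 2 or 3 they were 3, 0 and 7, and without T47D-co IFN and R5020 replicate 1, 2 or 3 they were 0, 1 and 11. In a fit of the 6 libraries alone 3 were called, quantile normalization gave 0 higher and 6 lower, and the deposited scale gave 0 higher and 29 lower at a shift of -0.165 for all rows. The shares of all rows called in these other fits are not given here.

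Relative to all rows, IFN in T47D-Y with EtOH raised EGLN3 and lowered PFKM, 1 of 38 each, against 2.51% and 1.93% of all rows (4.44%). EGLN3 had 4819, 4760.1 and 5015 with vehicle and 5664, 5372 and 6098 with IFN (log2 difference 0.23 ± 0.04 SE, adjusted p = 0.00174), in a row shared with SPTSSA. PFKM had 953, 957 and 990.1 and 838, 840.1 and 852 (log2 difference -0.20 ± 0.04 SE, adjusted p = 0.00625), and the sum of its locus was not called (0.0053). Without T47D-Y IFN and EtOH replicate 2 the count was 4. CA9, which has the largest fitted difference here, had 0.826, 0 and 0 with vehicle and 3.45, 0.901 and 7.28 with IFN, a few fragments at most (adjusted p = 0.0504), and was not called. With R5020 present, IFN in T47D-Y again left EGLN3 higher (4988, 4767 and 5019 against 5659, 5625 and 5565, log2 difference 0.19 ± 0.04 SE, adjusted p = 0.00986) and SLC2A1 lower (1047, 1058 and 1094 against 865, 911 and 931, log2 difference -0.24 ± 0.05 SE, adjusted p = 0.00154), against 3.08% and 1.69% of all rows (4.77%). The EGLN3 call was lost without T47D-Y R5020 and water replicate 2. It was also lost without the libraries low in mitochondrial transcripts, a fit that leaves 1 library in the T47D-Y R5020 and water group.

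On the deposited scale both IFN comparisons in T47D-Y turned to nearly all lower, 34 lower and 1 higher with EtOH and 36 lower and 0 higher with R5020, at shifts of -0.475 and -0.481 for all rows, and EGLN3 turned to -0.25 and -0.29. These counts, too, stand without the share of all rows called on that scale. The difference in IFN response between the lines with EtOH called 0 of 38 by limma. Over all rows 0.0645% were higher and 0.312% lower (0.377% in all). For this difference 7 of the 38 had an unadjusted limma p under 0.05, beside 1554 of all 20162 rows.

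The lines differed in most members before any treatment. With vehicle, 27 of 38 were higher and 7 lower in T47D-co than in T47D-Y, against 29.7% and 33.4% of all rows (63.1% in either direction), with a median of 0.48 against -0.04. On the deposited scale, where the median of all rows is -0.268, 23 were higher and 11 lower. These counts stand without the share of all rows called on that scale. LDHB, CA9 and LOX passed the filter through the 12 libraries of 1 line only and had to differ, so they stand here as levels and not as support, and the other 35 members gave 25 higher and 6 lower. Over the 17967 rows that passed in both lines 31.1% were higher and 33.1% lower. Of the 9 other hypoxia-induced genes that passed in both lines, 8 were higher in T47D-co and 1, ADM, lower.

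LDHB had 708, 687 and 655 scaled fragments in T47D-Y with vehicle and 4.81, 6.42 and 3.46 in T47D-co. Over the 4 treatments its range was 603 to 722 for T47D-Y libraries and 1.82 to 9.28 for T47D-co libraries. LDHA went the other way, 2741, 2805 and 3073 in T47D-Y and 7411, 8016 and 7677 in T47D-co (log2 difference 1.42 ± 0.05 SE, adjusted p = 4.64e-19). Per kilobase, LDHA made up 72.7 ± 1.95% of lactate dehydrogenase RNA in T47D-Y and 99.9 ± 0.0276% in T47D-co, where the pair was in effect a single gene. CA9 had 0.826, 0 and 0 in T47D-Y and 18.8, 24.5 and 18.9 in T47D-co, and LOX had 2.38, 2.53 and 3.27 and 51.3, 36.8 and 59.7, levels at which the fitted difference depends on the added 1. At the CA9 locus the row took at most 5.53% of the fragments, and with vehicle the sums over the loci differed by 0.28 for CA9 and 0.18 for LOX.

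NDRG1 was the member with the largest difference among those that passed in both lines, 632, 477 and 662 in T47D-Y with vehicle against 4440.1, 4617 and 4689 in T47D-co (log2 difference 2.97 ± 0.10 SE, adjusted p = 1.51e-18). ANKRD37 came next, with 31.5, 27.0 and 29.9 and 109, 117 and 117 (log2 difference 1.92 ± 0.24 SE, adjusted p = 1.19e-07), and the sum of its locus differed by 0.91. BNIP3 had 329.7, 305 and 349.9 and 939, 959.9 and 924 (log2 difference 1.52 ± 0.07 SE, adjusted p = 2.05e-16), and VEGFA 849, 715 and 818 and 1944, 2013 and 2070.5 (log2 difference 1.34 ± 0.05 SE, adjusted p = 1e-17). PFKP (1.42), P4HA1 (1.39), ALDOA (1.24), PFKFB3 (1.23; 1444, 1372 and 1381 in T47D-Y) and PGAM1 (1.16) were also more than 1 log2 unit higher in T47D-co. In all of these the T47D-co libraries lay above every T47D-Y library.

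For PDK1 and P4HA2 the row and its locus went opposite ways. PDK1 had 455, 464 and 544 and 1324, 1284 and 1334 in its own row (log2 difference 1.43), while the sum of its locus, with ITGA6, was lower in T47D-co (log2 difference -0.40). P4HA2 had 175, 139 and 141 and 355, 337 and 327 (log2 difference 1.16), and its locus sum, with SLC22A4 and SLC22A5, was lower too (-0.17). PDK3 (376, 382 and 444 against 769, 720.1 and 763, log2 difference 0.91 ± 0.07 SE, adjusted p = 1.74e-11) was alone at its locus. SLC2A1 (1028 against 1410.2), PFKFB4 (465 against 655) and EPAS1 (3067 against 4265) were higher in T47D-co by 0.46, 0.49 and 0.48.

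Higher in T47D-Y were EGLN3, GAPDH and HK1. EGLN3 had 4819, 4760.1 and 5015 in T47D-Y and 1566, 1660.1 and 1588 in T47D-co (log2 difference -1.60 ± 0.04 SE, adjusted p = 1.1e-20), in a row shared with SPTSSA, so the gap cannot be assigned to EGLN3 alone. GAPDH had 14139, 14722 and 14530.0 and 6429.5, 6576 and 6399 (log2 difference -1.16 ± 0.03 SE, adjusted p = 4.92e-21), so a gene often used as a loading reference differed by more than 1 log2 unit between the sublines. HK1 had 3321, 3262 and 3248 and 1913, 1818 and 1785 (log2 difference -0.83 ± 0.04 SE, adjusted p = 5.72e-16). ENO1 (-0.43), TPI1 (-0.15) and ADM (199, 204 and 241 against 169, 168 and 162, -0.36) were lower in T47D-co by less, and ADM lost its call without T47D-Y vehicle replicate 3 or T47D-co vehicle replicate 3. The fitted values for HIF1A (0.10), HK2 (0.15) and PKM (0.12) were small and turned to -0.13, -0.09 and -0.12 on the deposited scale. HIF1A lost its call without T47D-Y vehicle replicate 2 or T47D-co vehicle replicate 3, and HK2 without T47D-Y vehicle replicate 1 or T47D-co vehicle replicate 2.

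In the other treatments the counts are given over the same 35 members, without LDHB, CA9 and LOX, and beside the rows that passed in both lines. With R5020 and water 24 were higher and 8 lower in T47D-co (background 33.4% and 36.2%; over all rows 32.0% and 36.6%, 68.5% in all). With IFN and EtOH 24 were higher and 6 lower (background 30.9% and 32.8%; over all rows 29.6% and 33.0%, 62.6% in all). With both, 22 were higher and 9 lower (background 33.8% and 35.3%; over all rows 32.5% and 35.8%, 68.3% in all). In every one of the 4 treatments 19 of the 35 were higher in T47D-co, and 5 were lower, ADM, EGLN3, ENO1, GAPDH and HK1, against 18.5% and 19.8% of the rows that passed in both lines. The gap was wider with R5020 than with vehicle for NDRG1 (902, 820.3 and 1034 in T47D-Y against 15834, 15945 and 15515 in T47D-co, log2 difference 4.11 ± 0.10 SE, adjusted p = 9.61e-22) and for P4HA2 (167, 181 and 151 against 1981, 1903 and 1907, log2 difference 3.54 ± 0.08 SE, adjusted p = 3.61e-22), and the differences in response were called for both. The sum of the P4HA2 locus differed by 1.81 with R5020 and water. EPAS1 and EGLN1 were called in both directions. EPAS1 was higher in T47D-co with vehicle (0.48) and lower with R5020 (-0.29), and EGLN1 was higher with R5020 (0.34) and lower with IFN and EtOH (-0.23).

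The genes with the widest gaps held them in the other treatments. EGLN3 had 4988, 4767 and 5019 in T47D-Y and 1538, 1572 and 1638 in T47D-co with R5020 and water (log2 difference -1.64 ± 0.04 SE, adjusted p = 3.99e-21), 5664, 5372 and 6098 and 1660.0, 1682 and 1693 with IFN and EtOH (log2 difference -1.76 ± 0.04 SE, adjusted p = 1.34e-21), and 5659, 5625 and 5565 and 1728, 1763 and 1552 with both (log2 difference -1.74 ± 0.04 SE, adjusted p = 1.02e-21). The T47D-Y libraries were more than 1 log2 unit above those of T47D-co in each, in the row that EGLN3 shares with SPTSSA. GAPDH had 13405, 14038 and 14228 and 6137, 6304 and 6170.1 with R5020 and water (log2 difference -1.16 ± 0.03 SE, adjusted p = 2.78e-21), 14092, 13927 and 13841 and 6672, 6404 and 6185 with IFN and EtOH (log2 difference -1.12 ± 0.03 SE, adjusted p = 1.04e-20), and 13128, 13462 and 13957 and 5542, 5811 and 5822 with both (log2 difference -1.24 ± 0.03 SE, adjusted p = 6.87e-22). NDRG1 had 581, 523 and 733 against 4443, 4516 and 4241 with IFN and EtOH (log2 difference 2.86 ± 0.10 SE, adjusted p = 3.23e-18) and 767, 745 and 889 against 16264, 17033 and 17497 with both (log2 difference 4.41 ± 0.10 SE, adjusted p = 2.21e-22). P4HA2 with both had 149.7, 154 and 187 against 1951, 1953 and 1914 (log2 difference 3.57 ± 0.08 SE, adjusted p = 2.88e-22), and the sum of its locus differed by 1.89. Over the 4 treatments CA9 spanned 0 to 7.28 in T47D-Y and 10.6 to 24.5 in T47D-co, and LOX 0.901 to 5.57 and 34.0 to 186.

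**Figure D5:**
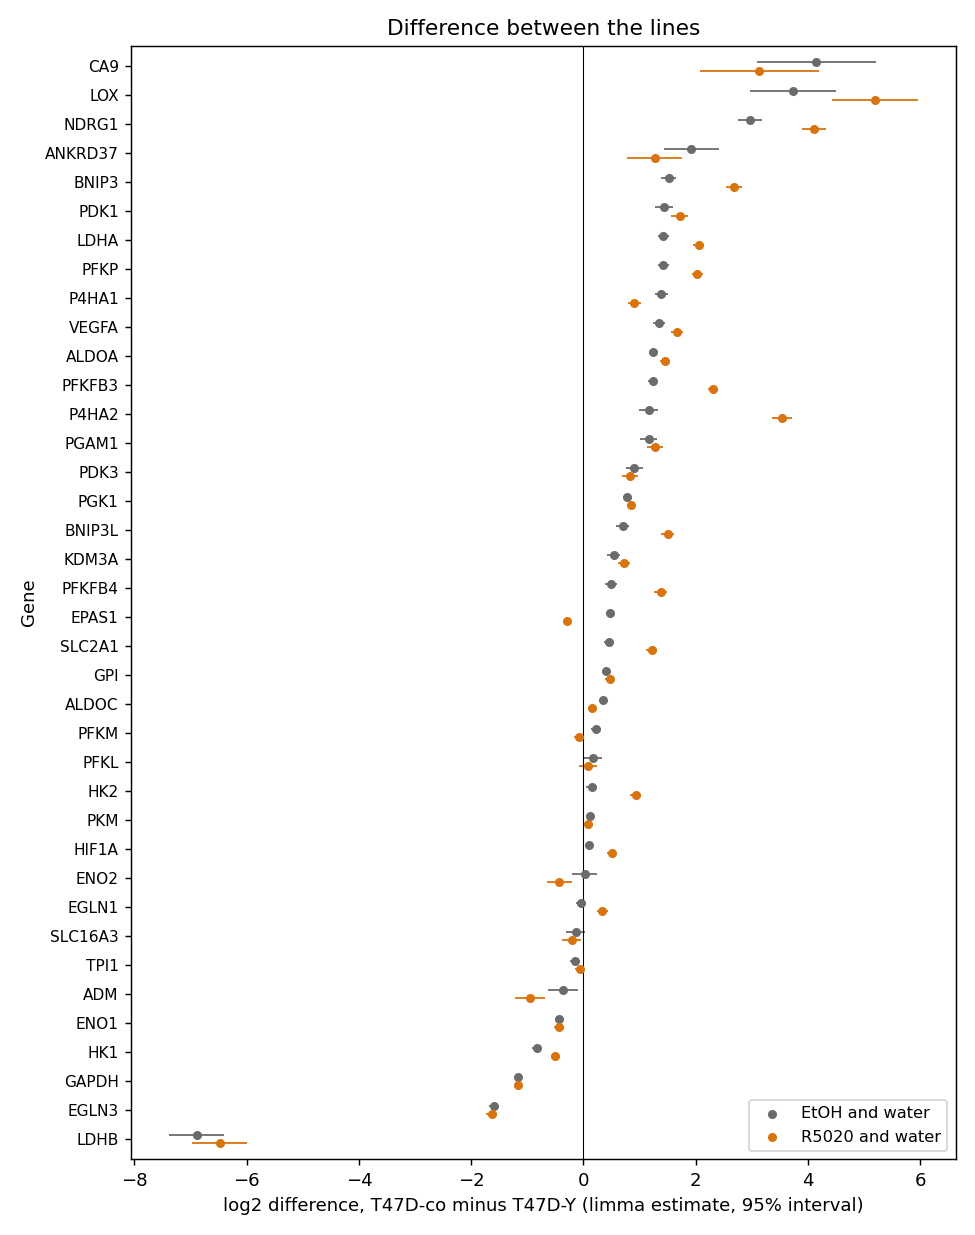
Log2 difference of T47D-co over T47D-Y (x axis, with its 95% confidence interval) for each of the 38 members, with vehicle and with R5020 and water. LDHB lies far to the left at -6.89 with vehicle, and NDRG1 moves from 2.97 to 4.11 and P4HA2 from 1.16 to 3.54 between the treatments.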

How the data were processed

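The deposited table gives, per the labels, 24 libraries of total RNA extracted with Trizol and sequenced on an Illumina MiSeq. TopHat2 2.0.12, Cufflinks 2.2.1 and GRCh37 (hg19) are named in the submitters' processing notes, while annotation, strand setting and the unit are not given in the sources used here. The deposited signal is, from its values, estimated fragments per gene or merged locus divided by a size factor per library that the authors set within 4 sets of libraries (line and IFN state). Where a row had its locus to itself, 98.0% to 99.2% of a library's values were a whole number of steps (tolerance 0.05; 63.1% to 66.6% over all rows). Each value was divided by that step, and the libraries were rescaled by median-of-ratios factors over 14201 rows with mean of at least 50. Of 25541 rows with values 25 with repeated names were left out, as was 1 blank row. A count test was not used because rows at shared loci are not whole.

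Rows with at least 10 in 3 libraries (20162) were tested with limma 3.58.1 in R 4.3.3 (Python 3.11.15 for the rest) on log2(value + 1), with 8 group means, 16 residual degrees of freedom, a variance trend, 16 comparisons, two-sided, and Benjamini-Hochberg adjustment over all rows. The script was checked on simulated data. Alternatives were another scaling (the deposited scale, quantile), pseudocount, filter, fit of the groups compared, replicate block, each library or the 4 libraries left out, and sums over loci. Member counts under these alternatives are given without the share of all rows called there. The members and lists were chosen with earlier results of these data known. Per-library values go to the 8 largest rises and falls with R5020 in T47D-co with water, the 3 largest in each other comparison, and a fixed set of regulators and enzymes. Intervals are 95%.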

Additional observations from a re-analysis of the deposited data

Results flagged for a closer look

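The response to R5020 differed between the lines in 23 members with water and in 27 with IFN, by limma's test of the difference itself (T47D-co minus T47D-Y, log2 scale). With 1 exception, NDRG1 with water, none of these members was called in T47D-Y. Uncalled T47D-Y values still enter the differences. For PDK1 with IFN the 0.63 came from 0.46 in T47D-co and -0.18 in T47D-Y. LOX, counted with water, and LDHB, counted with IFN, passed the filter through 1 line only and are not taken as support.

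With water the differences were HIF1A 0.40, EPAS1 -0.76, EGLN1 0.38, SLC2A1 0.76, HK1 0.33 and HK2 0.79 for the regulators and glucose entry. In glycolysis they were PFKM -0.30, PFKP 0.61, ALDOA 0.20, ALDOC -0.18, PFKFB3 1.08, PFKFB4 0.88 and ENO2 -0.45. The lactate branch gave LDHA 0.63 and PDK1 0.28. Among the other hypoxia-induced genes they were VEGFA 0.32, ADM -0.60, BNIP3 1.16, BNIP3L 0.80, NDRG1 1.14, LOX 1.46, P4HA1 -0.48 and P4HA2 2.37. The NDRG1 value is the difference of a rise in both lines. P4HA2 had the largest value of those called with water: its mean in T47D-Y was 152 scaled fragments with vehicle and 166 with R5020, while T47D-co had 339.6 and 1930.4. Leaving out the 4 libraries low in mitochondrial transcripts leaves 1 T47D-Y library with R5020 and water, so no count is given for that fit. ALDOA, ENO2, PDK1, ADM and LOX lost their calls there. PDK1 also lost its call in 7 of 12 fits that left out 1 library, LOX in 4 and ENO2 in 2.

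With IFN the differences were HIF1A 0.47, EPAS1 -0.78, EGLN1 0.63, SLC2A1 1.02, HK1 0.34 and HK2 0.90 for the regulators and glucose entry. In glycolysis they were PFKL -0.30, PFKM -0.47, PFKP 0.48, ALDOC -0.22, PFKFB3 1.11, PFKFB4 0.78, GAPDH -0.12, ENO1 -0.13, ENO2 -0.75 and PKM -0.14. The lactate branch gave LDHA 0.75, LDHB 0.93, SLC16A3 -0.33 and PDK1 0.63. The other hypoxia-induced genes gave VEGFA 0.34, ADM -0.52, BNIP3 1.35, BNIP3L 1.00, NDRG1 1.55, KDM3A 0.46 and P4HA2 2.48. The small differences for GAPDH, ENO1 and PKM are below 0.14 in size, and ENO1 lost its call in 7 of 12 fits without 1 library. PFKL and SLC16A3 lost theirs in 5 of the 12, GAPDH and LDHB in 4 and PKM and ADM in 3. The LDHB value rests on a few fragments per T47D-co library, and the sum of its locus gave -1.88.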

How the results depend on the processing

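R5020 in T47D-co gave 25 to 28 calls with water and 30 to 33 with IFN when 1 library was left out at a time, and the line comparisons gave 32 to 34 with vehicle, 33 to 34 with R5020, 31 to 33 with IFN and 33 to 35 with both. The line by R5020 difference gave 21 to 23 with water and 21 to 29 with IFN, the line by IFN difference 0 to 0 and the R5020 by IFN difference 0 to 1. R5020 in T47D-Y gave 1 to 1 with water and 0 to 1 with IFN, and IFN gave 0 to 1 in T47D-co with EtOH, 0 to 11 with R5020, 2 to 4 in T47D-Y with EtOH and 1 to 2 with R5020. Of 1830 gene values from these fits 96 lost a call and 0 reversed. The share of all rows called is given for none of the fits in this section, so the counts describe the members alone. The deposited scale gave 28 calls for IFN in T47D-co with EtOH, 29 with R5020, 35 in T47D-Y with EtOH, 36 with R5020 and 25 for the line by IFN difference, where the median of all rows moved to 0.29; the authors' separate scaling of 4 sets of libraries moves all rows together. A fit of only the groups compared gave 0 calls for R5020 in T47D-Y with water and 3 for IFN in T47D-co with R5020, with fewer samples behind the spread. Leaving out the 4 libraries low in mitochondrial transcripts left 1 T47D-Y library with R5020 and water, so no counts are given for the comparisons that use that group. The replicate block gave 1 call (NDRG1) for R5020 in T47D-Y with IFN. For IFN in T47D-co with R5020 it lost EPAS1 and SLC16A3 and gained PKM and PDK3, and it gained PGAM1 for R5020 in T47D-co with IFN and PDK3 for the line by R5020 difference with IFN. Same-numbered libraries did not deviate together (median r 0.0075 over 84 pairs, 6 of 24 libraries closest to their own number), so the numbers are not taken as pairs.

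Directions turned for these gene values, and beyond the scaling itself the cause was not tested. On the deposited scale EGLN3 with IFN in T47D-Y was -0.247 and -0.293, HIF1A, HK2, PFKM and PKM between the lines with vehicle were -0.135, -0.0879, -0.0113 and -0.116, and ALDOC and PKM with R5020 were -0.0567 and -0.128. Quantile normalization gave PKM -0.0605 with vehicle, -0.161 with R5020 and -0.0876 with IFN, and ALDOC -0.00158 with R5020. Sums of all rows at a locus gave 0.0053 for PFKM (IFN, T47D-Y), -0.0900 for ALDOC, 0.0423 for SLC16A3 and -0.0067 for CA9 between the lines with R5020 (CA9 -0.274 with both), and 0.0054 for ENO2 with R5020 (0.0235 for the line difference in that response). They gave -1.84 for LDHB with R5020 after IFN (-1.88 for the line difference), -0.396, -0.0960, -0.576 and -0.139 for PDK1 between the lines in the 4 treatments, and -0.169 and -0.0317 for P4HA2 between the lines with vehicle and with IFN. A pseudocount of 10, no filter and a filter of 50 turned none of the gene values tested. Depth limits CA9, LOX, LDHB in T47D-co and ANKRD37 in T47D-Y, whose libraries hold few fragments.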
